A study of Mus musculus with 6 samples.

Results

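The liver sinusoidal endothelial genes examined here are 10 genes, Stab1, Stab2, Clec4g, Dnase1l3, Kdr, Ptprb, Oit3, Fcgr2b, Mrc1 and Egfl7, which were taken by symbol from the 24411 genes of a liver RNA-seq table. All are known as marker or scavenger receptor genes of this cell type. The list uses no measured value as a criterion, but it was drawn up with earlier results of these data known. The table covers 6 livers taken at postnatal day 19, 3 from wild-type p62+/+ mice and 3 from p62S351E/+ mice. The p62S351E/+ mice carry, beside a wild-type allele, 1 allele of Sqstm1 (the gene encoding p62) in which a serine of the KEAP1-binding region is replaced by glutamate to imitate phosphorylation. This allele was made by prime editing in RENKA4, a C57BL/6N-derived embryonic stem cell line, and was passed on through a single male chimera with low chimerism by in vitro fertilization, so that all p62S351E/+ mice descend from that founder. The labels name no treatment. The comparison asks how far the transcripts of the sinusoidal endothelium differ in a liver that carries the phosphomimetic allele.

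Liver sinusoidal endothelial cells line the capillaries of the liver lobule. They lack a basement membrane, are pierced by open pores called fenestrae, and remove macromolecules, denatured collagen, hyaluronan and immune complexes from blood through endocytic receptors. Stab1 and Stab2 encode the stabilins, Mrc1 the mannose receptor, Fcgr2b an inhibitory Fc receptor and Clec4g a C-type lectin of this clearance system. Kdr encodes the VEGF receptor VEGFR2, Ptprb a receptor phosphatase that acts on TIE2 and VE-cadherin, and Egfl7 a secreted endothelial protein. Dnase1l3 encodes a secreted nuclease that degrades DNA in chromatin, and Oit3 a secreted protein of the liver. Several of these genes are not limited to the sinusoid. Kdr, Ptprb and Egfl7 are used by endothelium of most organs, Stab1 and Mrc1 also by macrophages, and Fcgr2b also by macrophages and B cells.

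The values are expected counts, which RSEM estimates per gene by dividing reads that match several genes among them. They summed to between 8696712 and 10341622 per liver, but only 134911 to 315436 of them fell outside Rn45s, Lars2 and Mir6236, and this smaller number sets the counting error of the values below. The counts outside these 3 genes were fewest in p62S351E/+ mice 1 (134911) and 2 (231631). The same 2 livers stood apart in another respect. Transcripts of 10 brain neuron and glia genes such as Mbp summed to between 1900 and 2002 normalised counts in the p62+/+ livers and to 1842 in p62S351E/+ mouse 3, but to 36.2 and 39.1 in p62S351E/+ mice 1 and 2. Most of what was left in mice 1 and 2 came from Slc1a2, with 32.4 and 32.8 normalised counts, whereas Mbp had 1.90 and 2.52. Xist, a transcript of female cells, had 70.8, 1505 and 1071 expected counts in the p62+/+ livers and 1, 0 and 1537 in the p62S351E/+ livers, and the labels give neither a sex nor a sequencing batch. All 10 hepatocyte genes examined were detected in every liver. They summed to 15166, 14124 and 14424 normalised counts in p62+/+ livers and to 22127, 34370 and 15716 in p62S351E/+ livers, without overlap. These sums were not tested. Sqstm1 had 97, 94 and 100 expected counts in the p62+/+ livers and 55, 77 and 116 in the p62S351E/+ livers, which cannot show the substituted codon. After division by a scaling factor for each library these were 77.8, 73.0 and 86.4 against 104.7, 97.0 and 89.9 normalised counts, which did not overlap. The fitted log2 fold change of Sqstm1 was 0.30 (standard error 0.20, edgeR adjusted p = 0.498), and it was -0.39 when the libraries were scaled by total counts only.

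Transcripts of all 10 sinusoidal endothelial genes were detected in all 6 livers, and none of them was shown to differ between the genotypes. Normalised counts, which are expected counts divided by a scaling factor for each library (TMM), overlapped between the groups for 10 of 10 genes, whereas they did not overlap for 26.7% of the 5945 genes tested. Of the 10 genes, 9 passed the filter on low counts and were tested by edgeR's quasi-likelihood test, and Clec4g did not. Calls required an adjusted p (Benjamini-Hochberg over all genes tested) below 0.05 together with a log2 fold change above 1 or below -1. No sinusoidal endothelial gene was called higher (0 of 9, beside 0.841% of all genes tested) or lower (0 of 9, beside 0.0841%), and together 0.925% of all genes tested were called. At an unadjusted p below 0.05 the number was also 0, and limma-voom called 0 as well, as did DESeq2, which gave an adjusted p for 4 of the 9 (Stab1, Stab2, Ptprb and Mrc1). Of the 9 fitted log2 fold changes, 3 were above 0 and 6 below 0, and their median of -0.028 lay beside a median of -0.031 over all genes tested. In bulk liver RNA, fewer sinusoidal endothelial cells and less RNA per cell cannot be told apart.

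**Figure D1:**
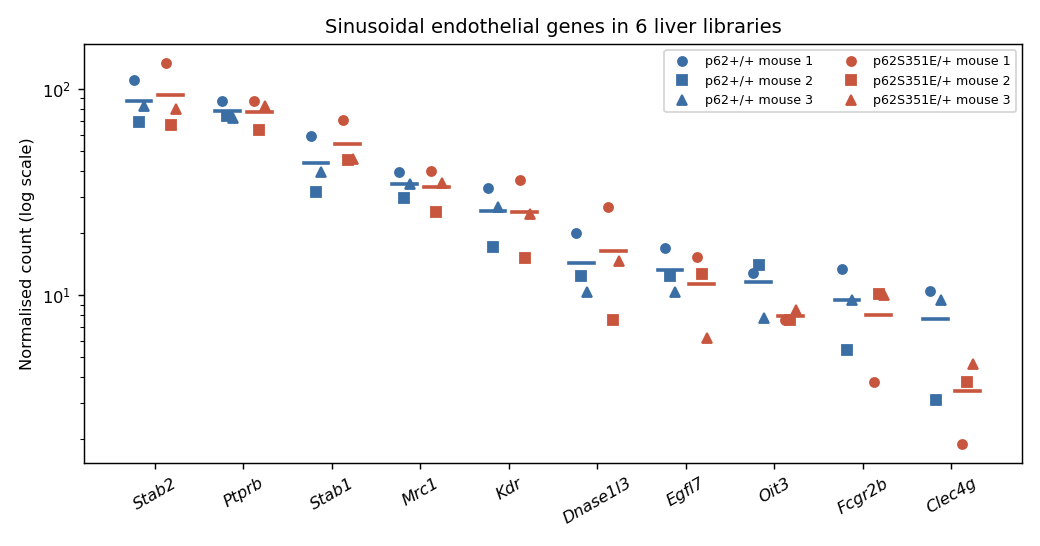
Normalised counts (vertical axis, log scale) of the 10 sinusoidal endothelial genes in each liver, with p62+/+ mice in blue, p62S351E/+ mice in red, 1 symbol per mouse number and a bar at the mean of the 3 mice. The groups overlap for every gene, and mouse 1 of each genotype is the highest of its group for most genes.

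The stabilins gave the largest part of the signal. Stab2, on chromosome 10 of GRCm38 from 86841198 to 87008025, and Stab1, on chromosome 14 from 31139013 to 31168641, are large multidomain receptors that take up hyaluronan, modified lipoproteins and other waste from blood. The sequence before the start of both genes is shown because the stabilins carried the most counts of the list (RefSeq promoter table, GRCm38.p6, minus strand, 5′ to 3′). The Stab2 window is cut to the 167 bases that lie before its annotated gene model, and the Stab1 window holds 250 bases. Capitals mark matches to CNGGAA, a core sequence of ETS factors, on either strand.
Stab2, chr10:87008026-87008192: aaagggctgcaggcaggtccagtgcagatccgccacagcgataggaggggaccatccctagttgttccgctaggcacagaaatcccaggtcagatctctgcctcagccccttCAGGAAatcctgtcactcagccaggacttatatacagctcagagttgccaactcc
Stab1, chr14:31168642-31168891: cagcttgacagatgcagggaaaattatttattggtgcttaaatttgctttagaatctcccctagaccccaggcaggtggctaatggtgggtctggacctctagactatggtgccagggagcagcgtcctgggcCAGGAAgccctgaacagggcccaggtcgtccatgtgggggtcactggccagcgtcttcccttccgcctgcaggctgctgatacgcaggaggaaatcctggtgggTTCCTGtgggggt

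Both windows held an ETS core, 1 match in Stab2 and 2 in Stab1. Promoters of 7 of the 10 genes were in the table, 9 promoters in all, and 7 of these 9 held CNGGAA within the 250 bases before the start, as did 54.2% of all 32851 promoters. TGACNNNGC, the core of the antioxidant response element bound by NRF2, was found before Kdr and before 1 start of Egfl7 and in 10.2% of all promoters. A core sequence of GATA factors, AGATAA, was in 0 of the 9 and in 9.99% of all. The letters TATAAA of a core promoter were found only before Clec4g among the 9 and in 12.4% of all. Both strands were searched for each motif, and a match is a run of letters and not a measured binding site. Dnase1l3, Ptprb and Oit3 are the genes without an entry.

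Stab2 had 137, 89 and 96 expected counts in p62+/+ mice 1, 2 and 3 and 70, 53 and 103 in p62S351E/+ mice 1, 2 and 3. After scaling these were 109.9, 69.1 and 82.9 normalised counts in p62+/+ livers (87.3 ± 20.8, SD, n = 3) and 133, 66.8 and 79.8 in p62S351E/+ livers (93.3 ± 35.3, SD, n = 3). Mouse 1 was highest and mouse 2 lowest in either genotype, and the p62S351E/+ values reached from below the lowest to above the highest p62+/+ value. For Stab2 the fitted difference was 0.089 on the log2 scale (standard error 0.31, edgeR adjusted p = 0.905), with a 95% interval from -0.61 to 0.79. The low expected counts of p62S351E/+ mice 1 and 2 went with the low depth of these libraries, and after scaling mouse 1 was the highest of all 6.

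Stab1 had 74, 40.9 and 46 expected counts in p62+/+ livers and 37, 36 and 58.8 in p62S351E/+ livers. The corresponding normalised counts were 59.4, 31.7 and 39.7 (43.6 ± 14.2, SD, n = 3) and 70.5, 45.4 and 45.5 (53.8 ± 14.4, SD, n = 3). The mean was higher in p62S351E/+ livers, but p62+/+ mouse 1 exceeded p62S351E/+ mice 2 and 3. Its log2 fold change of 0.29 (standard error 0.30, edgeR adjusted p = 0.637) had an interval from -0.39 to 0.98. Exons of Stab1 share 112 bases with Nt5dc2 on the opposite strand, whose expected counts were at most 3.25 in any library, and those of Stab2 share 141 bases with Gm16268. The library kit is not stated to keep the strand, so that reads in shared bases could belong to either gene.

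The ratio of Stab2 to Stab1 within a library does not depend on depth or scaling. It was 1.85, 2.18 and 2.09 in p62+/+ livers (2.04 ± 0.169, SD, n = 3) and 1.89, 1.47 and 1.75 in p62S351E/+ livers (1.71 ± 0.214, SD, n = 3), and the groups overlapped at the values of mouse 1. Together the stabilins made up 40.0% ± 2.27 (SD, n = 3) of the expected counts of the 10 genes in p62+/+ livers and 44.0% ± 3.98 (SD, n = 3) in p62S351E/+ livers.

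The other endocytic receptors included 1 well counted gene and 2 scarce ones. Mrc1, on chromosome 2 from 14229392 to 14332057, encodes a receptor for mannose-ending glycoproteins and collagen chains. Its expected counts were 49, 38 and 40 in p62+/+ livers and 21, 20 and 45 in p62S351E/+ livers, or 39.3, 29.5 and 34.5 against 40.0, 25.2 and 34.9 normalised counts. No mouse stood apart, and the group means of 34.5 ± 4.91 and 33.3 ± 7.51 (SD, n = 3 each) differed by less than the spread in either group. Its fitted log2 fold change came to -0.051 (standard error 0.25, edgeR adjusted p = 0.936, 95% interval -0.63 to 0.53).

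Fcgr2b, on chromosome 1 from 170958617 to 170976547, removes small immune complexes from blood. It had 16.8, 7 and 11.0 expected counts in p62+/+ livers and 2, 8 and 13 in p62S351E/+ livers, which correspond to 13.4, 5.43 and 9.48 (9.45 ± 4.004, SD, n = 3) against 3.81, 10.1 and 10.1 (7.99 ± 3.62, SD, n = 3) normalised counts. Here p62S351E/+ mouse 1, the highest of its group for the stabilins, was the lowest of all 6. The log2 fold change of -0.19 (standard error 0.51, edgeR adjusted p = 0.872) had an interval from -1.36 to 0.97. Of its 6 values 2 were not whole numbers, as were 2 of Stab1, so that RSEM divided reads there. Fcgr2b resembles Fcgr3 in sequence and also shares 155 exonic bases with Gm38204.

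Clec4g, on chromosome 8 from 3707064 to 3720651, encodes the lectin LSECtin. With 13, 4 and 11 expected counts in p62+/+ livers and 1, 3 and 6 in p62S351E/+ livers, it was the scarcest of the 10 genes. The normalised counts were 10.4, 3.11 and 9.50 (7.68 ± 3.99, SD, n = 3) in p62+/+ livers and 1.90, 3.78 and 4.65 (3.44 ± 1.40, SD, n = 3) in p62S351E/+ livers. The ratio of the means was 0.448, but p62+/+ mouse 2 lay below p62S351E/+ mice 2 and 3. When edgeR was run without a filter on low counts, the fitted change was -1.05 on the log2 scale (standard error 0.59, adjusted p = 0.608). Reads in 146 bases shared with Gm16553 could belong to either gene.

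Among the endothelial signalling genes, Ptprb was the most evenly expressed of the 10 genes in p62+/+ livers. Ptprb lies on chromosome 10 from 116275523 to 116389535 and had 109, 95 and 84 expected counts in p62+/+ livers and 46, 50 and 106 in p62S351E/+ livers. The normalised counts of 87.5, 73.7 and 72.6 (77.9 ± 8.29, SD, n = 3) and 87.6, 63.0 and 82.1 (77.6 ± 12.9, SD, n = 3) had nearly the same mean. Its coefficient of variation was 10.6% in p62+/+ livers and 16.6% in p62S351E/+ livers, where counting error alone gives 10.2% and 13.1%. Fitted over all 6 livers, the log2 fold change came to -0.0078 (standard error 0.22, edgeR adjusted p = 0.989), with the narrowest interval of the 9 tested genes, from -0.50 to 0.49.

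Kdr, on chromosome 5 from 75932827 to 75978458, is required for endothelial growth and survival. It had 41, 22 and 31 expected counts in p62+/+ livers and 19, 12 and 32 in p62S351E/+ livers. On the normalised scale these were 32.9, 17.1 and 26.8 (25.6 ± 7.98, SD, n = 3) against 36.2, 15.1 and 24.8 (25.4 ± 10.5, SD, n = 3). As for Stab2, mouse 1 was highest and mouse 2 lowest in each genotype. In the fit, Kdr differed by -0.028 on the log2 scale (standard error 0.37, edgeR adjusted p = 0.975, 95% interval -0.88 to 0.82).

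Egfl7, on chromosome 2 from 26580014 to 26593120, encodes a matrix-bound regulator of vessel formation and hosts the endothelial microRNA miR-126. Its expected counts did not overlap, with 21, 16 and 12 in p62+/+ livers and 8, 10 and 8 in p62S351E/+ livers. These counts are not corrected for the low depth of p62S351E/+ mice 1 and 2, and the share of all genes without such overlap was not determined. After scaling, the values of 16.9, 12.4 and 10.4 (13.2 ± 3.32, SD, n = 3) against 15.2, 12.6 and 6.20 (11.3 ± 4.65, SD, n = 3) normalised counts overlapped. Its log2 fold change of -0.27 (standard error 0.41, edgeR adjusted p = 0.763) had an interval from -1.21 to 0.67 and moved with the choice of analysis. It became -1.10 with brain transcripts as a covariate (adjusted p = 0.797), -0.85 with Xist as a covariate (0.579) and -1.06 with total counts as the only scaling (0.420). With p62S351E/+ mice 1 and 2 both left out it was -1.07. That fit sets the single remaining mouse, the lowest of its group, against 3 and assumes that it varies as the p62+/+ mice do. The brain covariate is low only in p62S351E/+ mice 1 and 2, so that its fit rests mainly on the same mouse. Egfl7 shares 401 exonic bases with its neighbours, among them Agpat2 on the opposite strand, which had 7 to 16 expected counts per library.

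The secreted proteins were represented by Dnase1l3 and Oit3. Dnase1l3, on chromosome 14 from 7964533 to 7994573, had 25, 16 and 12 expected counts in p62+/+ livers and 14, 6 and 19 in p62S351E/+ livers. Its normalised counts were 20.1, 12.4 and 10.4 (14.3 ± 5.11, SD, n = 3) against 26.7, 7.56 and 14.7 (16.3 ± 9.65, SD, n = 3), so that the highest and the lowest value both came from p62S351E/+ mice. With a coefficient of variation of 59.2% in p62S351E/+ livers it was the most variable of the 10 genes in either genotype. Dnase1l3 differed by 0.15 on the log2 scale (standard error 0.47, edgeR adjusted p = 0.891), and the interval from -0.92 to 1.23 includes a doubling.

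Oit3, on chromosome 10 from 59422958 to 59441778, had the largest fitted difference of the 9 tested genes. Expected counts were 16, 18 and 9 in p62+/+ livers and 4, 6 and 11 in p62S351E/+ livers. The normalised counts were 12.8, 14.0 and 7.77 (11.5 ± 3.30, SD, n = 3) and 7.62, 7.56 and 8.52 (7.90 ± 0.540, SD, n = 3). All p62S351E/+ mice lay below p62+/+ mice 1 and 2, and p62+/+ mouse 3 lay among them. The fitted log2 fold change came to -0.53 (standard error 0.38, edgeR adjusted p = 0.527), with an interval from -1.41 to 0.34. The spread among p62S351E/+ mice (6.83%) was below the 40.5% that counting error alone gives.

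**Figure D2:**
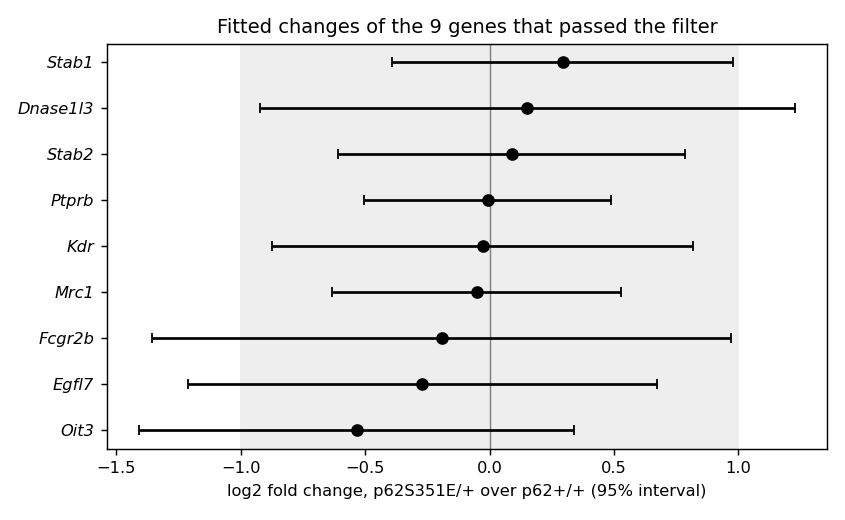
Fitted log2 fold changes (horizontal axis, p62S351E/+ over p62+/+) of the 9 sinusoidal endothelial genes that passed the filter, with 95% intervals from edgeR that are not adjusted for the number of genes; the grey band spans changes of up to 1 in either direction. All intervals include 0, and those of Stab1, Stab2, Kdr, Ptprb and Mrc1 lie inside the band.

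For 5 of the 9 tested genes the 95% interval lay within 1 of 0 on the log2 scale, namely for Stab1, Stab2, Kdr, Ptprb and Mrc1. This also held in 15 of 16 other edgeR analyses for Ptprb and for Mrc1, in 14 for Stab2, in 11 for Stab1 and in 8 for Kdr. Without p62+/+ mouse 1 the intervals of Stab1 (-0.14 to 1.31), Stab2 (-0.51 to 1.10) and Kdr (-0.79 to 1.19) reached above 1. The intervals of Oit3, Fcgr2b and Egfl7 reached below -1, and that of Dnase1l3 above 1, so that changes of that size are not left out for these genes. Over the main analysis and 18 alternatives, 173 tests of these genes were made, of which 0 reached an unadjusted p below 0.05. The lowest adjusted p was 0.223, for Clec4g without p62S351E/+ mouse 3.

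Summed over the 10 genes, the signal was nearly equal in the genotypes and differed more from mouse to mouse. The sum of expected counts was 502, 346 and 352 in p62+/+ livers and 222, 204 and 402 in p62S351E/+ livers. As a share of what was counted outside Rn45s, Lars2 and Mir6236, which needs no scaling factor, it was 0.169% (95% exact Clopper-Pearson interval 0.154 to 0.184), 0.115% (0.104 to 0.128) and 0.130% (0.116 to 0.144) in p62+/+ livers. The shares in p62S351E/+ livers were 0.165% (0.144 to 0.188), 0.0881% (0.0764 to 0.101) and 0.127% (0.115 to 0.141). These intervals cover counting error only. Mouse 1 of each genotype had the highest share, p62S351E/+ mouse 2 had the lowest of all, and the groups overlapped.

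The summed normalised counts were 403, 268 and 304 in p62+/+ livers (325 ± 69.5, SD, n = 3) and 423, 257 and 311 in p62S351E/+ livers (330.3 ± 84.5, SD, n = 3), a ratio of means of 1.02. The coefficient of variation of the sum was 21.4% in p62+/+ livers and 25.6% in p62S351E/+ livers, while counting error alone gives 5.01% and 6.47%. The group means differed by less than the SD of either group. Without p62S351E/+ mice 1 and 2 the log2 ratio was -0.063, beside 0.023 with all mice. When the libraries were scaled by their total counts only, it became -0.69, and the median of all genes tested moved to -0.68 likewise, since these totals are set by Rn45s, Lars2 and Mir6236.

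**Figure D3:**
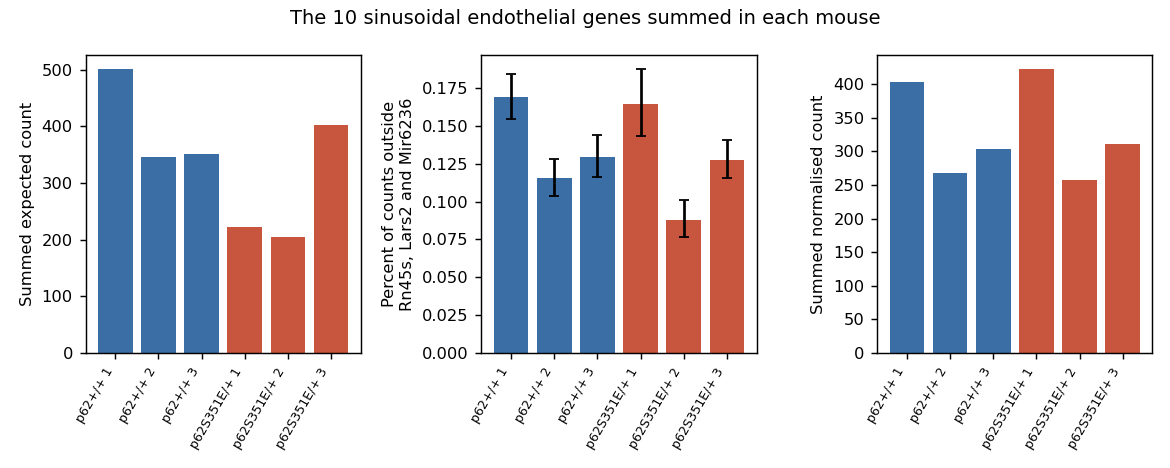
The 10 sinusoidal endothelial genes summed in each liver (blue, p62+/+ mice; red, p62S351E/+ mice), in expected counts on the left, as percent of counts outside Rn45s, Lars2 and Mir6236 with exact 95% intervals in the middle, and as normalised counts on the right. Expected counts are lowest in p62S351E/+ mice 1 and 2 (222 and 204), whereas after scaling mouse 1 of each genotype is highest (403 and 423) and mouse 2 lowest (268 and 257).

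Most of the 10 genes were highest in the same mouse of a genotype. In p62+/+ livers, mouse 1 had the highest normalised count for 9 of the 10 genes, all but Oit3, whereas it was the highest of its group for 33.5% of all genes tested. Mouse 2 was the lowest for 6 and mouse 3 for 4 of the 10. In p62S351E/+ livers, mouse 1 was highest for 7 of the 10 genes, beside 28.3% of all genes tested, and mouse 2 was lowest for 7, beside 30.3%. The exceptions in p62S351E/+ mouse 1 were Clec4g, Fcgr2b and Oit3, each with 4 or fewer expected counts there. The 10 genes share each library and its scaling factor, and these counts are given as a description.

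**Figure D4:**
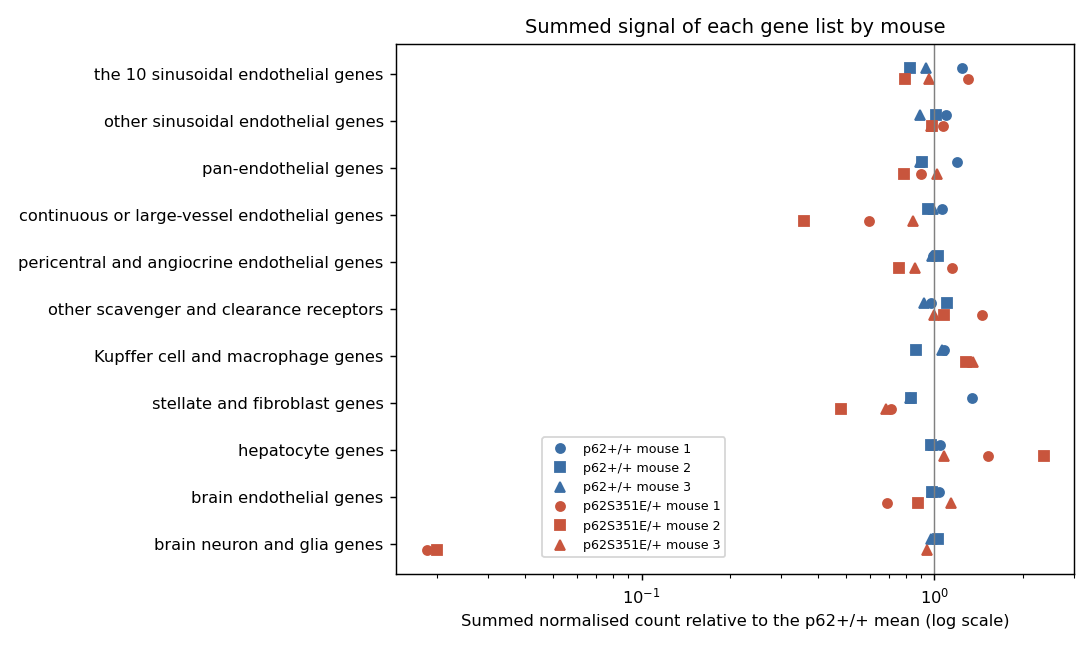
Summed normalised counts of each gene list in each liver, divided by the mean of the p62+/+ mice (horizontal axis, log scale; blue, p62+/+ mice; red, p62S351E/+ mice; 1 symbol per mouse number). Both endothelial lists of the sinusoid scatter around 1 in both genotypes, and Aass is the most abundant gene of the list beside the 10. The brain neuron and glia genes are far to the left in p62S351E/+ mice 1 and 2, whose sums are 36.2 and 39.1 normalised counts.

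Per kilobase of exon, the order of the 10 genes was led by Stab2 in both genotypes. Among p62+/+ mice the mean level was 9.97 ± 2.37 normalised counts per kilobase (SD, n = 3) for Stab2, followed by Ptprb (5.84), Mrc1 (5.41), Stab1 (4.24), Oit3 (4.14), Egfl7 (3.69), Clec4g (3.12), Kdr (2.83), Dnase1l3 (2.77) and Fcgr2b (1.63). Only Stab2 was separated from its neighbour in this order, and all other neighbours overlapped between mice. In p62S351E/+ livers Stab2 had 10.7 ± 4.03 normalised counts per kilobase (SD, n = 3), again above all values of Ptprb, which together with Mrc1 and Stab1 kept the next ranks. There Stab1 (5.23 ± 1.40, SD, n = 3) was also separated from the following gene, Egfl7 (3.17 ± 1.30, SD, n = 3), and the other neighbours overlapped. The order depends on the length used. With the longest transcript in place of all exons, 7 of the 10 genes changed rank in p62+/+ livers and Egfl7 moved up to the second place, while Stab2 remained first and Fcgr2b last.

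Of 60 genes in 4 further endothelial lists, 14 passed the filter. EdgeR called 0 of them, beside 0.925% of all genes tested, with 1 at an unadjusted p below 0.05. DESeq2 and limma-voom also called 0. Their fitted changes lay mostly below 0. The median was -0.12 for other sinusoidal genes (7 tested), -0.30 for pan-endothelial genes (3) and -0.75 for continuous or large-vessel genes (2). It was 0.030 for pericentral and angiocrine genes (2), beside -0.028 for the 10 genes and -0.031 for all genes tested. Among 16 other sinusoidal genes, 7 were tested, with 1 log2 fold change above 0, 6 below 0 and a median of -0.12. Their summed normalised counts were 203 ± 20.5 in p62+/+ and 204 ± 11.1 in p62S351E/+ livers (SD, n = 3 each). Their most abundant genes were Aass (log2 fold change 0.50, edgeR adjusted p = 0.454), an enzyme of lysine breakdown that hepatocytes also make, Maf (-0.15), a transcription factor of sinusoidal identity, and F8 (-0.12), which encodes coagulation factor VIII. None of these passed the test. Aass alone gave 54.6, 61.3 and 41.5 of the summed normalised counts in p62+/+ livers and 57.1, 105.8 and 59.6 in p62S351E/+ livers. The near equality of the sums thus leans on a gene that is not limited to the sinusoid. Lyve1, which did not pass the filter, Ehd3, an endocytic trafficking gene, and Meis2, a transcription factor, are added after their values were seen. They did not go in the same direction. Lyve1 had 4.81, 3.11 and 6.05 normalised counts in p62+/+ livers and 9.52, 21.4 and 8.52 in p62S351E/+ livers, without overlap. Its log2 fold change without a filter was 1.45 (edgeR adjusted p = 0.337). Ehd3 had 24.9, 27.2 and 25.0 normalised counts in p62+/+ livers and 15.2, 6.30 and 18.6 in p62S351E/+ livers (log2 fold change -0.92, edgeR adjusted p = 0.317), and Meis2 had 13.6, 11.6 and 12.1 against 5.71, 1.26 and 9.30 (-1.12, adjusted p = 0.384). Without p62S351E/+ mouse 3 both were called lower, at -1.31 and -1.95 (edgeR adjusted p = 0.0319 and 0.0312). That analysis called 975 genes lower over all genes tested, beside 5 in the main analysis. Its remaining p62S351E/+ livers were the 2 with few brain transcripts, and the part of brain RNA in this was not tested. Of 19 pan-endothelial genes, 3 were tested, namely Eng (-0.45), Cdh5 (-0.30) and Flt1 (-0.28), which encode endoglin, VE-cadherin and VEGFR1, and none passed. Their list summed to 119 ± 20.3 normalised counts in p62+/+ livers and 107 ± 13.8 in p62S351E/+ livers (SD, n = 3 each).

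Genes of continuous or large vessels summed to less in p62S351E/+ livers, among which brain transcripts also differed, and the sum was not tested. The 11 genes summed to 64.3, 57.5 and 59.6 normalised counts in p62+/+ livers and to 36.2, 21.6 and 51.1 in p62S351E/+ livers, so that the sums did not overlap. The 2 tested genes were Plvap (log2 fold change -0.84), a diaphragm protein, and Ltbp4 (-0.66), a matrix protein, and neither passed the test. The values were lowest in p62S351E/+ mice 1 and 2, the livers with few brain transcripts, and the part of brain RNA in this was not tested. Sele, an adhesion molecule of activated endothelium, was at 0 in all 6 livers. Of 14 pericentral and angiocrine genes 2 were tested, Notch1 (-0.07) and Hgf (0.13), and neither passed.

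Transcripts of other cells that could carry the same genes were examined beside them. Of 11 brain endothelial genes 3 were tested and 0 called, and Lef1 was at 0 in every liver. This list summed to between 163 and 172 normalised counts in p62+/+ livers and to 114, 146 and 189 in p62S351E/+ livers, and its most abundant gene, Slco1a4, an organic anion transporter, had a log2 fold change of 0.87 (edgeR adjusted p = 0.117). The other 10 genes summed to between 108.7 and 114.8 in p62+/+ livers and to 19.1, 29.1 and 101.3 in p62S351E/+ mice 1, 2 and 3. Spock2, which encodes a proteoglycan, was at 61.8, 54.3 and 60.5 normalised counts in p62+/+ livers, at 0 in p62S351E/+ mice 1 and 2 and at 47.3 in mouse 3, and Slc2a1, a glucose transporter, was at 9.52 and 10.1 in mice 1 and 2 and at 22.5 in mouse 3. Without p62S351E/+ mouse 3 both Spock2 (edgeR adjusted p = 3.9e-06) and Slc2a1 (log2 fold change -1.15, adjusted p = 0.0320) were called lower. The same analysis called 975 genes lower over all genes tested. The 10 brain neuron and glia genes all passed the filter, with a median log2 fold change of -1.44 and 0 calls. With their summed signal as a covariate, 0 of the 9 sinusoidal endothelial genes were called. In that fit Kdr, Ptprb and Egfl7, which endothelium of most organs uses, had log2 fold changes of -0.058, 0.073 and -1.10. The covariate was low only in p62S351E/+ mice 1 and 2, so that the genotype term rests mainly on p62S351E/+ mouse 3. Without mice 1 and 2 the same genes were at -0.031, 0.086 and -1.07. The part of brain RNA in these genes was thus not tested. Of 7 microglia genes 1 was tested and 0 called, with sums between 45.7 and 52.7 in p62+/+ livers and between 31.0 and 45.4 in p62S351E/+ livers. Most of these sums came from Sall1, with 33.7, 39.6 and 34.5 normalised counts in p62+/+ livers and 40.0, 42.8 and 23.2 in p62S351E/+ livers. P2ry12 had 5.62, 3.11 and 6.05 against 0, 0 and 0.775 normalised counts. Cx3cr1 overlapped, with 2.41, 1.55 and 4.32 against 3.81, 2.52 and 3.87.

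Macrophages, which in liver are mainly the resident Kupffer cells, can share Stab1, Mrc1 and Fcgr2b with the sinusoidal endothelium. Of 12 Kupffer cell and macrophage genes 7 were tested and 0 called, with a median log2 fold change of 0.36. Their summed normalised counts were 149, 119 and 146 in p62+/+ livers and 181, 176 and 187 in p62S351E/+ livers, which did not overlap. Marco, which did not pass the filter, gave 0.802, 0.776 and 2.59 of these against 22.9, 12.6 and 17.0. Of the 7 log2 fold changes 5 were above 0 and 2 below 0. The most abundant genes were Csf1r (0.21), Lyz2 (0.61) and Clec4f, a lectin limited to Kupffer cells (-0.55, edgeR adjusted p = 0.408). The part of these cells in the values of Stab1, Mrc1 and Fcgr2b was not tested. B cell genes summed to at most 3.88 normalised counts in p62+/+ livers and to 5.71, 2.52 and 13.2 in p62S351E/+ livers, and 0 of 6 passed the filter. Among 7 red blood cell genes 4 were tested and 0 called, with sums of 170 ± 30.6 and 103 ± 39.0 normalised counts (SD, n = 3 each). The 10 hepatocyte genes were all tested with 0 calls and a median of 0.68.

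Of 12 stellate and fibroblast genes 6 were tested and 0 called, with a median log2 fold change of -0.96 and sums of 359.5, 224 and 222 normalised counts in p62+/+ livers against 190, 129 and 183 in p62S351E/+ livers. The p62+/+ mouse with the highest sum, mouse 1, was also the highest for 9 of the 10 sinusoidal endothelial genes. Col3a1, a fibrillar collagen, had 86.7, 38.0 and 49.2 normalised counts in p62+/+ livers and 13.3, 12.6 and 18.6 in p62S351E/+ livers (log2 fold change -1.94, standard error 0.35, edgeR adjusted p = 0.0513). It was called lower in 7 of 18 analyses. Without p62S351E/+ mouse 3, where 975 of all genes tested were called lower, the edgeR adjusted p was 0.00181. Reln, which stellate cells make, had a log2 fold change of 0.05. DESeq2 and limma-voom each called 1 hepatocyte gene, Apob, higher and Col3a1 lower, and at an unadjusted p below 0.05 edgeR had 3 hepatocyte genes, 3 stellate and fibroblast genes and 1 brain endothelial gene.

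Of 13 other scavenger and clearance receptors, 8 were tested, and edgeR called 1 higher in p62S351E/+ livers, whereas DESeq2 and limma-voom called 0 (2 and 5 genes at an unadjusted p below 0.05). This was Colec12, a scavenger receptor with a collagen domain and a C-type lectin domain that endothelial cells are known to use. It had 7, 4 and 5 expected counts in p62+/+ livers and 16, 16 and 26 in p62S351E/+ livers, or 5.62, 3.11 and 4.32 against 30.5, 20.2 and 20.1 normalised counts, without overlap. Its log2 fold change of 2.39 (standard error 0.37, edgeR adjusted p = 0.0282) had an interval from 1.55 to 3.24. The p62+/+ counts of Colec12 all lay below the minimum count of the filter. Colec12 passed that filter only through the p62S351E/+ livers, where it was higher, so that its calls after filtering are a description. The call was lost when any 1 of the p62+/+ mice or p62S351E/+ mouse 1 or 2 was left out, with adjusted p between 0.0675 and 0.144 and log2 fold changes between 2.20 and 2.62, and it held without p62S351E/+ mouse 3. It was also not called by limma-voom (adjusted p = 0.0602), with the mouse number as a replicate block (0.0983), with brain transcripts (0.0844) or Xist (0.0859) as a covariate, or with total counts as the only scaling (0.417). DESeq2 gave no adjusted p for it (unadjusted p = 0.00029). In all it was called in 7 of the 17 analyses that gave an adjusted p, 1 of which has a single p62S351E/+ mouse, and the log2 fold change lay between 1.67 and 2.62 over all that held the gene. The most abundant receptors of this list, Lrp1 (log2 fold change 0.11), Asgr1 (0.55) and Scarb1 (0.78), were not called, and the median of the 8 was 0.67.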

How the data were processed

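Liver RNA of 3 p62+/+ and 3 p62S351E/+ mice was depleted of ribosomal RNA and sequenced. Per the submitters' processing notes and methods, the authors trimmed reads with Trim Galore, mapped them to mm10 with STAR and estimated counts per gene with RSEM, and they deposited the resulting expected counts of 24411 gene symbols as unnormalized values. Tool versions and the annotation were not given in the sources used here. Groups and mouse numbers came from the labels, which give each mouse its own sample.

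Expected counts, rounded to whole numbers, were tested in R 4.3.3 with edgeR 4.0.16 (filterByExpr with a minimum count of 10, TMM, robust quasi-likelihood test with legacy set to FALSE) over 5945 genes. The methods of the study used DESeq2, which was run as an alternative (1.42.0), as was voom in limma 3.58.1. Other alternatives changed the scaling, filter, dispersion method, replicate block, covariates (brain transcripts or Xist) and mice. Normalised counts are expected counts over a TMM scaling factor whose geometric mean across the 6 libraries was set to 1. Standard errors were obtained from the log2 fold change and the F statistic (its size over the root of F), and the 95% intervals use the fit's degrees of freedom. Lengths and positions are those of GENCODE M21 (GRCm38). The tests were checked on simulated counts with large changes in the better counted genes and the same dispersion for all genes. This check does not give the power for scarce genes or small changes.

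Every sinusoidal endothelial gene is named. From each other list, the called genes and the 3 with the highest mean normalised count could be named, and some of these are given only within their list's sums. The sinusoidal endothelial genes and the lists were chosen with earlier results of these data known.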

Additional observations from a re-analysis of the deposited data

How the results depend on the processing

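No sinusoidal endothelial gene was called in the main analysis or under any of the 18 alternatives, of which the one without p62S351E/+ mice 1 and 2 has a single p62S351E/+ mouse and takes its spread from the p62+/+ mice. Of 157 log2 fold changes of these genes under the alternatives, 30 changed sign, all without a call. When the libraries were scaled by total counts only, Stab1 was at -0.45, Stab2 at -0.67, Dnase1l3 at -0.59 and the log2 ratio of the summed signal at -0.69. Stab2 was also below 0 with at least 10 counts required in every library (-0.18), without p62S351E/+ mice 1 and 2 (-0.12), and with brain transcripts (-0.14) or Xist (-0.089) as a covariate. Ptprb was above 0 in these last 3 analyses (0.086, 0.073 and 0.016). Without p62S351E/+ mice 1 and 2 and with the brain covariate, Fcgr2b (0.096 and 0.092) and Mrc1 (0.029 and 0.012) were above 0. Both of these analyses take the p62S351E/+ level mainly from mouse 3. By limma-voom Dnase1l3 was at -0.099 and Fcgr2b at 0.089. Leaving out 1 mouse at a time gave log2 fold changes between -0.24 and 0.29 for Stab2, -0.31 and 0.50 for Dnase1l3, -0.33 and 0.24 for Kdr, -0.090 and 0.13 for Ptprb, -0.47 and 0.16 for Fcgr2b, -0.18 and 0.12 for Mrc1, and -0.52 and 0.060 for Egfl7. Using the longest transcript moved 7 genes to another rank. The cause of these changes was not tested.

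Over all genes tested, 50 were called higher and 5 lower. The counts were 12 and 2 with total counts as the only scaling, 79 and 10 without a filter, and 122 and 13 by limma-voom. The number called lower was 29 with at least 10 counts in every library, 12 by DESeq2, 8 by the legacy method of edgeR and 23 without p62S351E/+ mice 1 and 2. With a covariate the counts were 30 and 2 (brain transcripts) and 27 and 2 (Xist). Leaving out 1 mouse gave 16 to 333 higher and 1 to 975 lower, with 333 and 975 without p62S351E/+ mouse 3. That analysis also called 10 of 10 brain neuron and glia genes lower, 5 hepatocyte genes higher and 3 scavenger and clearance receptors higher (Colec12, Cd36 and Asgr2). With the mouse number as a replicate block, 18 genes were called higher and 1 lower, and 0 sinusoidal endothelial genes. Mice of the same number are not stated to be related, and the correlations of their deviations from the group means were 0.071, -0.085 and 0.00035 across 5945 genes. Each deviation is taken from the mean of 3 mice, so these values cannot settle whether mice of a number share a litter or batch.

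Counting error and the spread between mice both limit the values. The coefficient of variation of Stab2 was 23.8% and 37.8% in p62+/+ and p62S351E/+ livers, beside 9.66% and 12.4% from counting alone. Clec4g, Fcgr2b, Oit3 and Egfl7 rest on at most 21 expected counts per liver, and the intervals of Dnase1l3, Oit3, Fcgr2b and Egfl7 reach past 1 or -1 on the log2 scale.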

Other observations

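Marco, a scavenger receptor of macrophages and of some sinusoidal endothelial cells, did not pass the filter on low counts and is given here after its values were seen. It had 1, 1 and 3 expected counts in p62+/+ livers and 12, 10 and 22 in p62S351E/+ livers, or 0.802, 0.776 and 2.59 against 22.9, 12.6 and 17.0 normalised counts. The groups did not overlap. Without a filter on low counts its log2 fold change was 3.52 (edgeR adjusted p = 0.00579). Its p62+/+ counts all lay below the filter's minimum of 10. Where it passed a filter, it did so only through the p62S351E/+ livers, so that calls in those analyses are a description. The call was lost without p62+/+ mouse 1 (adjusted p = 0.135) or p62+/+ mouse 2 (0.132).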
